A study of Mus musculus with 12 samples.

Results

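Neurosphere cells from newborn mouse brain were compared with cells of the same origin that had been cultured with the growth factor BMP4. The comparison takes 8 of the 12 arrays of the study, 4 titled BMP4 and 4 titled Neurosphere, and all 10785 genes that had 1 gene symbol and were detected on enough arrays. The cells were neural stem cells of the subventricular zone, the layer beside the lateral ventricles in which stem cells persist after birth, of CD1 mice at postnatal day 1. All cells were grown as neurospheres, floating clusters kept in medium with EGF at 20 ng/ml. The cells of the Neurosphere group had been infected with a control GFP retrovirus, and their RNA came from sorted neurospheres. BMP4 cells carried a GFAP-GFP retrovirus, in which the promoter of the astrocyte gene Gfap drives the fluorescent reporter, and fluorescent cells were isolated by FACS before plating. They were then kept for 7 days in recombinant human BMP4 at 20 ng/ml with EGF lowered to 1 ng/ml, and cytokine was added once more on the way. Cytokine, EGF dose, time in culture, plating, virus and the reporter used for sorting therefore differed together between both groups. Their separate parts cannot be told apart. The levels of Gfap and of any other gene may thus include a choice of cells with an active Gfap promoter. Whether cells were sorted for GFP again at harvest is not clear from the labels. The remaining 4 arrays, LIF.NOG, hold cells that carried the GFAP-GFP retrovirus and were kept for 7 days in LIF at 20 ng/ml and noggin at 250 ng/ml with EGF at 1 ng/ml. Nothing in the labels tells whether the 4 samples per group came from different animals or cultures, and the p-values then reflect only the spread from sample to sample, possibly a technical one. In RNA taken from many cells together, fewer cells of a type and less RNA per cell cannot be told apart.

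BMP4 is a secreted ligand of the TGF-beta superfamily. It binds a pair of type I and type II serine/threonine kinase receptors, which phosphorylate SMAD1, SMAD5 and SMAD8, and these enter the nucleus with SMAD4 and switch on targets such as the Id genes. The targets include secreted antagonists of the pathway, among them noggin, so that the signal limits itself. In neural stem cells of the postnatal brain BMP signalling is known to favour the astrocyte fate, to hold back the oligodendrocyte and neuronal fates and to slow division, while EGF keeps the cells dividing.

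Signal is given as normalised log2 intensity, on which a step of 1 is a doubling and the detection floor of the arrays lay between 4.80 and 4.92. The share of probes detected per array ran from 38.6% to 42.0%, 39.4% ± 0.673 in Neurosphere and 40.2% ± 1.26 in BMP4 (SD, n = 4 arrays each; two-sided exact permutation test, p = 0.343, where 0.0286 is the smallest possible). The first principal component over the 8 arrays held 87.7% of the variance and separated the groups. On the second, with 4.51%, BMP4 4 stood apart at 32.5 while the other BMP4 arrays lay between -12.8 and -9.63. The deposited tables stand in 2 row orders, which divide the arrays into a set A with Neurosphere 2 to 4 and a set B with Neurosphere 1 and all BMP4 arrays. Counts are therefore also given within set B, where the 4 BMP4 arrays meet Neurosphere 1 alone and that single array is assumed to vary like the other groups.

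Of the 10785 genes, 5854 (54.3%) differed between BMP4 and Neurosphere at an adjusted p under 0.05 in limma with Benjamini-Hochberg adjustment. In BMP4 2867 genes were higher (26.6%) and 2987 lower (27.7%), and the median log2 fold change over all genes was 0.0026. Counts of list members below are to be read beside these shares of 26.6% and 27.7%. Signal differed at least 2-fold for 1500 higher genes (13.9%) and 1274 lower genes (11.8%), together 25.7%, and at least 16-fold for 87 and 53. The groups did not overlap for 5700 genes (52.9%). Within set B 1878 genes were higher and 1927 lower, and 63.9% of the 5854 calls were kept in the same direction, while 1 changed sign. Without BMP4 4, 93.9% of the calls were kept. Log2 fold changes below are BMP4 minus Neurosphere with the SE of limma, n = 4 arrays per group. That SE pools the spread of all 12 arrays, so it also reflects the spread within LIF.NOG. Adjusted p-values are from limma over all 10785 genes. A gene seen on few arrays of its dimmer group has only a bound, written as "at least". Folds and bounds hold for the brightest probe of a gene under the processing described below. Other probes or other processing gave smaller changes for some genes, also below a bound.

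**Figure D1:**
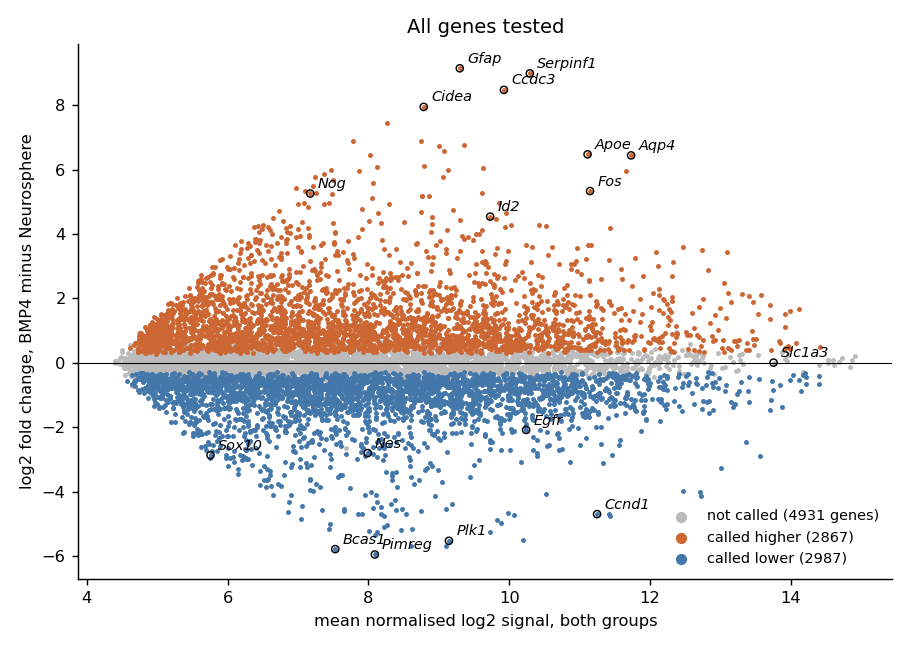
Log2 fold change (BMP4 minus Neurosphere) of each of the 10785 genes against its mean normalised log2 signal over both groups, with genes called higher in orange, called lower in blue and not called in grey. Fitted values of genes at the floor in one group, such as 9.14 for Gfap, are not bounds, and the glutamate transporter gene Slc1a3 lies at 0.01.

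Gfap, the intermediate filament protein that defines astrocytes, was among the genes with the largest rises. Its log2 signal on Neurosphere 1 to 4 was 4.33, 4.55, 4.76 and 5.27, and on BMP4 1 to 4 it was 13.08, 13.54, 14.30 and 14.56. It was detected on 1 Neurosphere array, so the change is at least 474-fold by its brighter probe (adjusted p = 2.64e-08). The other kept probe of Gfap had 7.01 ± 0.52 on the log2 scale. Serpinf1, which encodes the secreted neurotrophic factor PEDF, went from 5.65, 5.91, 5.44 and 6.19 to 14.73, 14.85, 14.89 and 14.68. Its 507-fold rise (log2 8.98 ± 0.15, adjusted p = 1.15e-13) had a smaller error than that of Gfap, and the 4 BMP4 values lay close together. The LIF.NOG arrays, which enter the error, had an SD of 1.57 for Gfap and 0.161 for Serpinf1. A second, dimmer probe of Serpinf1 had -0.12 ± 0.15 (adjusted p = 0.55), and the mean of both probes rose by 4.43 on the log2 scale. Ccdc3, which encodes a secreted coiled-coil protein, was 355-fold higher, at 5.32 to 5.86 in Neurosphere and 13.67 to 14.41 in BMP4. Cidea, a lipid droplet protein best known from brown fat, rose at least 220-fold, from 4.53 to 5.26 up to 12.56 to 12.93.

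The other 8 of the 12 largest rises ranged from at least 78.9-fold to at least 136-fold. Serpina3n, a serine protease inhibitor of reactive astrocytes, was detected on none of the Neurosphere arrays and was at 11.21, 12.47, 11.63 and 12.64 on the BMP4 arrays. Rgs9, a regulator of G protein signalling, rose 119-fold, and Papss2, which makes the sulphate donor for proteoglycans, at least 80.6-fold. Their other probes had 4.19 ± 0.14 (Rgs9) and 3.54 ± 0.13 (Papss2) on the log2 scale. The small heat shock protein gene Hspb1 rose 108-fold, the ubiquitin ligase adaptor Fbxo2 107-fold and the mannosidase Man1c1 94.7-fold. Apoe, the main lipid carrier of astrocytes, rose 88.7-fold, and Cd59a, an inhibitor of complement on the cell surface, at least 78.9-fold. None of these genes overlapped between the groups, which is part of the rule by which they were named. Papss2 was detected on the BMP4 arrays alone, and Cidea on these and 1 Neurosphere array. Both therefore entered the test through the group in which they were high.

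Among the 12 largest falls were 8 genes of cell division and DNA synthesis: Pimreg, Cdca8, Plk1, Cenpa, Spc24, Rrm2, Pif1 and Cdk1. Pimreg, a mitotic regulator, fell at least 56.6-fold, from 10.91 to 11.17 in Neurosphere to 4.56 to 5.93 in BMP4, and was detected on 2 BMP4 arrays. The other 4 belong to other processes. Bcas1, a protein of early myelinating oligodendrocytes, was at 10.38, 10.50, 10.38 and 10.42 in Neurosphere and was detected on none of the BMP4 arrays (at least 47-fold lower, adjusted p = 1.06e-09). Fbln2, an extracellular matrix protein, was 51.1-fold lower, the imprinted gene Mest 38.2-fold lower, and Bok, a member of the BCL2 family, 35.9-fold lower. Other kept probes had -1.69 ± 0.15 for Mest, -1.53 ± 0.14 for Bok and -1.80 ± 0.17 for Pif1 on the log2 scale. Genes in none of the gene lists with the smallest adjusted p included Rcsd1 (at least 37.3-fold higher), the secretory granule gene Chgb (at least 33.5-fold higher) and Stum (at least 57.4-fold higher), and on the other side Prr18 (24-fold lower), Jpt1 (7.4-fold lower) and Spsb4 (23.1-fold lower).

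**Figure D2:**
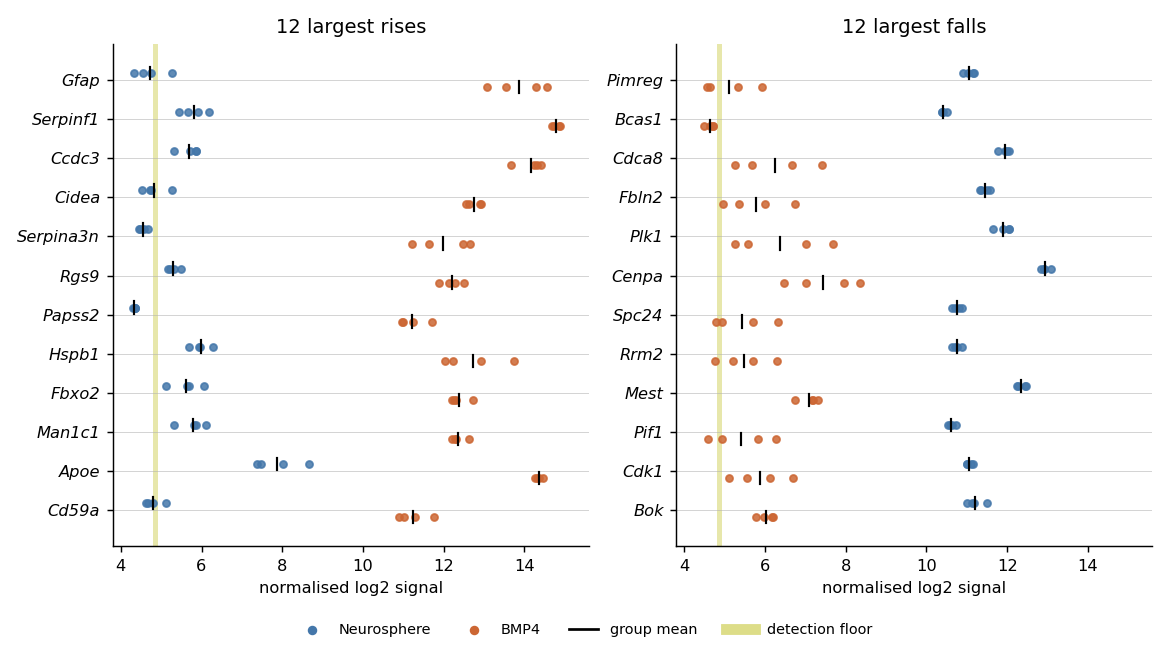
Normalised log2 signal on each array for the 12 genes with the largest rises and the 12 with the largest falls (blue points, 4 Neurosphere arrays; orange points, 4 BMP4 arrays; black bars, group means; yellow band, detection floor). Gfap, Cidea, Serpina3n, Papss2 and Cd59a lie at the floor in Neurosphere, and the BMP4 values of the cell division genes such as Plk1 are spread over more than their Neurosphere values.

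Most tested targets of BMP-SMAD signalling were higher in BMP4. Of 18 tested genes of a list of direct targets and feedback inhibitors, 15 were higher in BMP4, 2 were lower and 1 did not pass, with a median log2 fold change of 1.97 (13 higher and 1 lower within set B). Of the 15, the 5 genes Nog, Grem1, Msx1, Atoh8 and Gata2 were detected on none of the Neurosphere arrays, so they could enter the test only through arrays on which they were high. The Id genes encode dominant negative partners of basic helix-loop-helix factors and are the best known direct targets. Id1 was at 8.17, 8.19, 7.67 and 8.13 in Neurosphere and at 11.17, 11.31, 11.27 and 10.95 in BMP4, an 8.79-fold rise (log2 3.14 ± 0.19, adjusted p = 1.6e-08). Id2 went from 7.39, 7.42, 7.46 and 7.57 to 12.12, 11.95, 11.81 and 12.12 (23.2-fold, adjusted p = 3.35e-09). Id3 was already at 9.04 to 9.30 in Neurosphere and reached 11.30 to 11.69, a rise of 4.91-fold. Id4 was at 5.24 to 5.86 and reached 9.91 to 10.53, a rise of 27.6-fold. For all 4 Id genes the lowest BMP4 array was above the highest Neurosphere array, and 52.9% of all genes tested likewise had no overlap between the groups.

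The secreted antagonists rose too. Nog encodes noggin, which binds BMP ligands and keeps them from their receptors. It was at 4.56, 4.67, 4.50 and 4.46 on the Neurosphere arrays, detected on none of them, and at 9.80, 10.10, 9.34 and 9.97 on the BMP4 arrays, a rise of at least 30.0-fold (adjusted p = 1.77e-11). The antagonists Grem1 (at least 2.28-fold) and Fst (2.03-fold) and the BMP-binding modulator Bmper (3.69-fold) were higher as well. Hey1, a transcriptional repressor that responds to both Notch and BMP, rose 11.7-fold, and Dlx2, a homeobox gene of forebrain interneurons, 4.18-fold. The other probe of Dlx2 had 0.53 ± 0.16 on the log2 scale. The kinase gene Sgk1 and the transcription factors Atoh8, Msx1, Msx2 and Gata2 complete the 15. The 2 genes that fell encode the repressors Zeb1 (2.98-fold) and Tgif1 (1.56-fold), and Zeb2 did not pass (log2 fold change -0.01 ± 0.17). The inhibitory genes Smad7 and Bambi were on the array but detected on too few arrays, and Smad6 is not analysed here.

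Among receptors, ligands and SMAD proteins, 10 genes were tested, of which 4 rose and 3 fell (3 and 3 within set B; median log2 fold change 0.17). Bmpr1a, a type I receptor, went from 8.61, 8.53, 8.64 and 8.61 to 10.52, 11.00, 10.93 and 11.40 (5.16-fold, adjusted p = 3.18e-08). The type I receptor Acvr1 rose 2.27-fold, and the type II receptor Bmpr2 and the co-receptor Rgma rose as well. The type II receptor Acvr2b fell 2.82-fold and the shared Smad4 1.41-fold. The ligand Bmp7 went from 6.61 to 7.36 in Neurosphere to no detection on any BMP4 array, a fall of at least 4.37-fold (adjusted p = 4.33e-08). Bmpr1b (log2 fold change 0.64 ± 0.33), Eng and Smad1 (-0.12 ± 0.13) did not pass.

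The promoters of Id2 and Id4 are shown because these were the Id genes with the largest rises and a promoter in the table. They are taken from RefSeq on GRCm38.p6, run from 250 bases before to 50 bases after the annotated start and are written 5′ to 3′ on the strand of the gene. Capitals mark GGCGCC, a GC-rich letter string known as a binding site of BMP SMAD complexes, which is its own reverse complement. Id2 lies at chr12:25096043-25096342 on the minus strand, and Id4 at chr13:48260866-48261165 on the plus strand.
Id2: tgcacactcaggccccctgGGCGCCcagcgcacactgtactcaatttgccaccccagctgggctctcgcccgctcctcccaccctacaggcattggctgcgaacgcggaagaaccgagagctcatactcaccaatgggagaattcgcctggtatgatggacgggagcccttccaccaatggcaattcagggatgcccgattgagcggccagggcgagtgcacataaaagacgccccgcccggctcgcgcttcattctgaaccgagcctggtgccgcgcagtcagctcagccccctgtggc
Id4: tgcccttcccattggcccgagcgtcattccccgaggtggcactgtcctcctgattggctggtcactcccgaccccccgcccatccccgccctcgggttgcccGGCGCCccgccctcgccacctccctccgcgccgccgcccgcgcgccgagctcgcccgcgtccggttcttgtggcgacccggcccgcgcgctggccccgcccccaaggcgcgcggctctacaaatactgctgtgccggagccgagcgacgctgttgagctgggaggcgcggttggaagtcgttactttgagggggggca
The string begins 231 bases before the start in Id2 and 148 bases before it in Id4. It was found in 5 of 17 promoters (29.4%) of 11 of the 15 BMP-SMAD list genes that rose, in 20.0% of the promoters of the tested genes and in 11.9% of all 32851 promoters in the table.

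Genes of astrocyte structure and of the vascular endfoot were higher throughout the list: all 12 tested members rose (11 within set B), with a median log2 fold change of 2.25. Gfap, whose promoter drove the reporter, is one of them. Aqp4, the water channel of astrocyte endfeet, was at 8.35, 8.41, 8.69 and 8.61 in Neurosphere and 14.81, 14.97, 14.94 and 15.08 in BMP4. Its 86.7-fold rise (log2 6.44 ± 0.20, adjusted p = 3.41e-11) came with 4 BMP4 values that differed by less than a step of 1. The 5 kept probes of Aqp4 rose by 2.81 to 6.44 on the log2 scale. Gja1, the main gap junction protein of astrocytes, was already at 12.20 to 12.47 and rose 4.17-fold to 14.26 to 14.65. The sodium pump subunit Atp1b2 rose 11.0-fold, the filament protein Synm 6.47-fold, the bicarbonate transporter Slc4a4 5.82-fold and a second connexin, encoded by Gjb6, 5.44-fold. S100b, a calcium-binding protein of mature astrocytes, was detected on none of the Neurosphere arrays. It was at 6.15, 6.11, 6.31 and 7.56 in BMP4 (at least 3.12-fold higher), highest on BMP4 4. With no detection in LIF.NOG either, S100b could enter the test only through arrays on which it was high. Vim, a filament protein of both progenitors and astrocytes, was at 13.63 to 13.75 and 14.01 to 14.46. Its 1.39-fold rise (adjusted p = 0.00371) did not pass within set B or in a fit with sets A and B as blocks, and its other probe had 0.12 ± 0.23 (adjusted p = 0.707). Mlc1, Dag1 and Hepacam complete the 12 tested members.

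Of 19 genes of astrocyte metabolism and secretion, 15 rose, none fell and 4 did not pass (14 higher within set B; median 1.71). Apoe went from 7.37, 7.46, 8.01 and 8.67 to 14.31, 14.46, 14.36 and 14.27 (log2 6.47 ± 0.34, adjusted p = 3.75e-09). The chaperone and lipid carrier Clu rose 65.7-fold, from 6.27 to 7.23 up to 12.23 to 13.03, and the matricellular protein Sparcl1 20.1-fold. Slc1a2, which encodes GLT-1 and appears late in astrocytes, went from 7.05, 7.27, 7.32 and 7.47 to 10.52, 10.56, 10.28 and 10.85 (9.69-fold, adjusted p = 4.78e-10). Its second, dimmer probe had 0.46 ± 0.18 (adjusted p = 0.0512), and the mean of both 1.87. Slc1a3, which encodes GLAST and is also used by radial glia and stem cells, was at 13.66 to 13.85 in Neurosphere and 13.45 to 14.17 in BMP4, and these ranges overlapped. Its log2 fold change was 0.01 ± 0.19 (adjusted p = 0.984) for the brighter probe, while a second, dimmer probe of the gene was lower in BMP4 by -1.23 ± 0.23, and the mean of both was -0.61 (adjusted p = 0.0145). Aldoc, the glycolytic enzyme aldolase C, rose 6.48-fold, Ndrg2 9.00-fold, and glutamine synthetase, encoded by Glul, 2.93-fold. Gpr37l1, Fgfr3 and Gpc4 also did not pass.

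**Figure D3:**
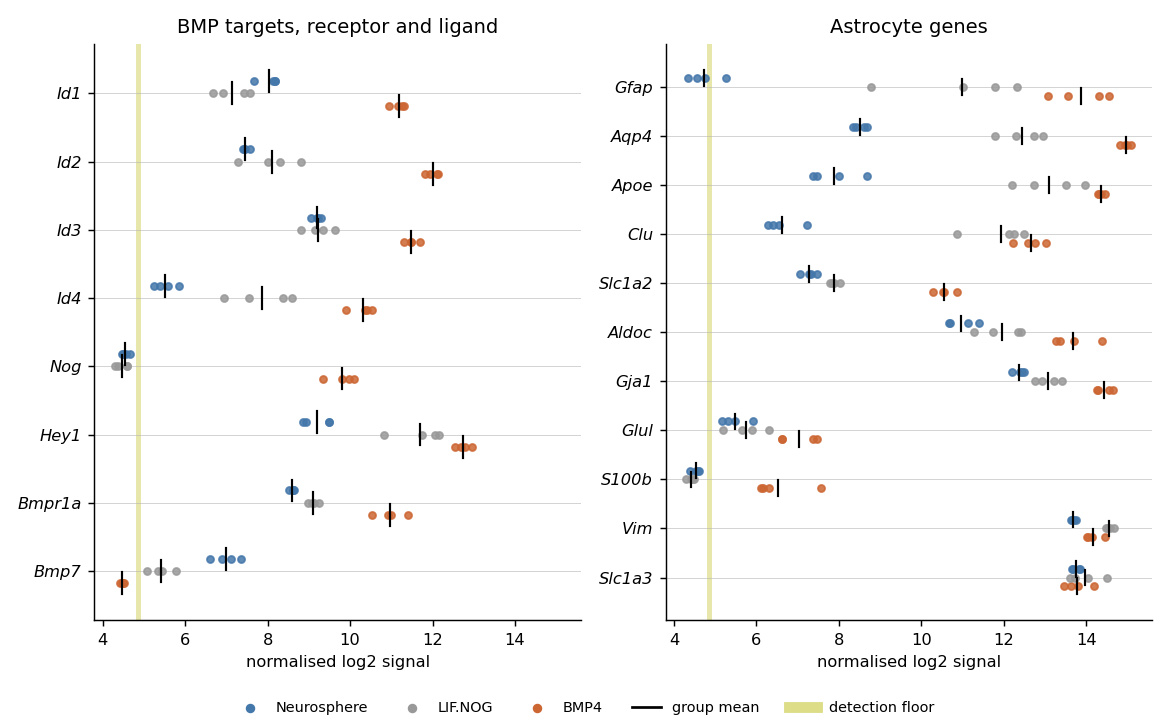
Normalised log2 signal on each array for 8 genes of BMP signalling and 11 astrocyte genes (blue, Neurosphere; grey, LIF.NOG; orange, BMP4; 4 arrays each; black bars, group means; yellow band, detection floor). Nog and S100b leave the floor on the BMP4 arrays alone, Gfap and Apoe are also raised on the LIF.NOG arrays, and Slc1a3 is near 14 in all groups.

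Of 11 transcription factors of astrocytes 7 rose, 1 fell and 3 did not pass, with a median of 0.61. Of the 8 called, 6 were highest on BMP4 4. Nfix rose 3.53-fold, Zbtb20 3.17-fold and Stat3, the factor downstream of gp130 receptors, 2.28-fold. Sox9 (1.53-fold) and Hes1 (1.67-fold), Nfia and Lhx2 were the other 4. Nfib fell 2.01-fold, from 12.13 to 12.48 to 11.22 to 11.60. Within set B the count of risen factors was 3. Zbtb20 was lowest on Neurosphere 4 and highest on BMP4 4 within each group.

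Of 23 tested genes of reactive astrocytes, 13 rose, 3 fell and 7 did not pass (median 0.93). Besides Serpina3n and Hspb1, the lipid kinase gene Sphk1 rose 23.2-fold, from 7.18, 7.11, 6.14 and 6.09 to 11.50, 11.58, 11.39 and 10.21. Its other probe had 0.09 ± 0.13 (adjusted p = 0.614), and the mean of both 2.31. S100a6 rose 16.8-fold (log2 4.07 ± 0.49), with Neurosphere arrays at 5.94, 6.01, 7.93 and 7.56. Cd44, the hyaluronan receptor, rose 6.38-fold, from 8.65 to 9.40 up to 11.69 to 11.97, while 1 of its 5 kept probes did not pass (0.22 ± 0.13). S100a10, a marker given to one class of reactive astrocytes, fell 6.09-fold and the glucocorticoid-responsive Fkbp5 3.99-fold. Lcn2, a strongly induced gene in inflamed astrocytes, was detected on none of the Neurosphere arrays and was at 5.15, 5.64, 5.12 and 7.45 in BMP4 (adjusted p = 0.126). Of the 16 called genes 15 were highest on BMP4 4 within their group. Without that array 12 were higher and 4 lower, and within set B 8 were higher and 3 lower.

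Genes known to respond to gp130 and STAT3 were higher in 9 cases and lower in 2 of 16 tested (8 and 2 within set B; median 0.94), although no gp130 ligand was added to these cells. Socs3, the feedback inhibitor of gp130 signalling, went from 5.91, 5.85, 6.31 and 6.64 to 11.40, 12.08, 11.90 and 12.42 (54.6-fold, adjusted p = 6.82e-09). Gadd45g rose 6.91-fold and Junb 12.7-fold, with BMP4 4 at 9.75 above the other BMP4 arrays at 8.89 to 9.02. Cebpd fell 4.4-fold by its brighter probe, while its other kept probe was higher in BMP4 by 0.77 ± 0.18.

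Immediate early genes, which answer growth factors, serum and stress within minutes, rose in 11 of 14 cases, and 1 fell (9 and 0 within set B; median 2.26). Fos, a subunit of AP-1, was at 8.38, 8.44, 8.35 and 8.77 in Neurosphere and 13.75, 13.70, 13.81 and 14.00 in BMP4 (40.3-fold, adjusted p = 2.26e-10). Ccn2, the matricellular gene also called CTGF, rose 63.1-fold, from 5.56 to 6.61 up to 11.27 to 13.01. Its relative Ccn1, undetected in Neurosphere, rose at least 43.6-fold, and by 4.02 ± 0.29 on the log2 scale for its other probe. Egr3 fell 3.23-fold, and Ier2 and Klf2 did not pass.

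Genes of DNA replication were lower without exception: all 28 tested members fell, also within set B and without BMP4 4, with a median log2 fold change of -2.94. Rrm2, the inducible subunit of ribonucleotide reductase, went from 10.77, 10.63, 10.88 and 10.71 to 4.77, 6.29, 5.69 and 5.20 (38.2-fold, adjusted p = 2.46e-07). Mcm5, a subunit of the replicative helicase, went from 12.20, 12.32, 12.50 and 12.46 to 7.05, 8.39, 7.78 and 6.40 (31.3-fold). Thymidine kinase, encoded by Tk1, fell at least 30.5-fold and was detected on 2 BMP4 arrays. Uhrf1, which carries DNA methylation through replication, fell 25.5-fold. The licensing inhibitor Gmnn fell at least 1.88-fold and was detected on none of the BMP4 arrays.

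Genes of mitosis fell in 23 of 24 cases, with a median of -4.45. Plk1, a kinase that drives entry into and passage through mitosis, went from 11.89, 12.05, 11.65 and 12.04 to 5.59, 7.68, 7.00 and 5.26 (46-fold, log2 -5.52 ± 0.53). Cenpa, the histone variant of centromeres, went from 12.92, 13.08, 12.84 and 12.90 to 7.01, 8.37, 7.95 and 6.47 (44.9-fold). Cdk1, the kinase of the mitotic cyclins, fell 36.6-fold and the spindle kinase Aurka 34.6-fold. Other kept probes had -0.73 ± 0.14 for Cdk1 and -2.65 ± 0.17 for Cenpa on the log2 scale. The single gene that did not pass, Bub1, had a dim probe at 5.84 in Neurosphere and 5.86 in BMP4. Within set B and without BMP4 4 alike, 21 genes of this list were called lower.

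The BMP4 arrays differed among themselves in these genes. Of the 51 replication and mitosis genes that fell, 37 were highest on BMP4 2 within their group, and 24 were lowest on BMP4 1 and 19 on BMP4 4. The median range over the 4 arrays was 0.83 in BMP4 and 0.34 in Neurosphere. For 50 of the 51 every BMP4 array lay below every Neurosphere array, which follows largely from their choice as genes called lower. Over all genes tested the groups did not overlap for 52.9%. Of the 51, 31 were still detected on all 4 BMP4 arrays. Averaged over the mitosis list, log2 signal was 5.19 to 6.06 on the BMP4 arrays and 9.08 to 9.21 on the Neurosphere arrays.

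**Figure D4:**
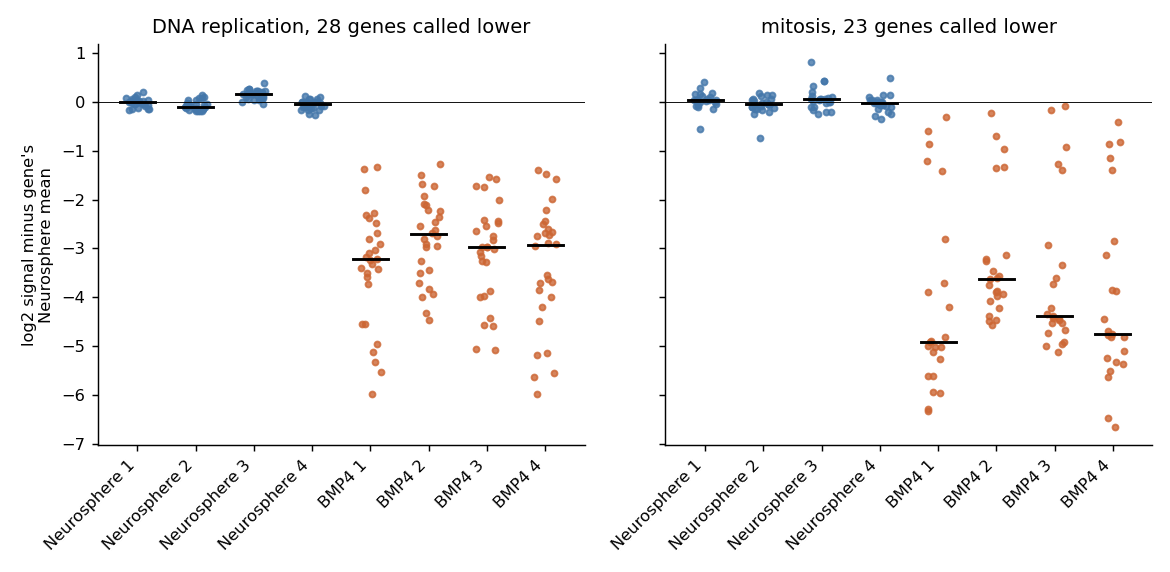
Log2 signal of each gene minus its Neurosphere mean, on the 4 Neurosphere (blue) and 4 BMP4 (orange) arrays, for 28 DNA replication genes and 23 mitosis genes called lower; black bars are medians over genes. The Neurosphere arrays lie around 0, and the mitosis genes are less reduced on BMP4 2 than on BMP4 1 and BMP4 4.

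The promoters of 4 mitosis genes and 1 replication gene are shown as examples from both lists, whose members fell together. The 4 mitosis genes had the largest fitted falls of their list, whereas Rrm2 and Tk1 had larger ones than Mcm5. How common each string was is given below the sequences. The promoters come from the same RefSeq table on GRCm38.p6 and have the same length and direction. In the first 4, capitals mark TTTGAA, the core of the cell cycle genes homology region, and CCAAT, the binding site of the factor NF-Y. In Mcm5 they mark TTTNNCGC, a string of the E2F type. All were searched on both strands. Plk1 lies at chr7:122159185-122159484 (plus strand), Cenpa at chr5:30666636-30666935 (plus), Cdk1 at chr10:69352863-69353162 (minus), Aurka at chr2:172370521-172370820 (minus) and Mcm5 at chr8:75109259-75109558 (plus).
Plk1: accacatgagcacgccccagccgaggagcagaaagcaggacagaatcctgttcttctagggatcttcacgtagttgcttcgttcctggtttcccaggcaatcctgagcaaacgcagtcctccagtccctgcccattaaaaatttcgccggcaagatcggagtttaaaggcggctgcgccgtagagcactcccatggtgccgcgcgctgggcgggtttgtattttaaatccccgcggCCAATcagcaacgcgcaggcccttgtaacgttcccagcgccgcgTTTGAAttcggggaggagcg
Cenpa: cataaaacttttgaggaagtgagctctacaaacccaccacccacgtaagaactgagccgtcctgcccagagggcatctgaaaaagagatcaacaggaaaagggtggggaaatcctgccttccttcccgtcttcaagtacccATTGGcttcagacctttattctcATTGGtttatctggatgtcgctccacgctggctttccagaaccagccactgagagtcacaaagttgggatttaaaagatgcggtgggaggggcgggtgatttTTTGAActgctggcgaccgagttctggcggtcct
Cdk1: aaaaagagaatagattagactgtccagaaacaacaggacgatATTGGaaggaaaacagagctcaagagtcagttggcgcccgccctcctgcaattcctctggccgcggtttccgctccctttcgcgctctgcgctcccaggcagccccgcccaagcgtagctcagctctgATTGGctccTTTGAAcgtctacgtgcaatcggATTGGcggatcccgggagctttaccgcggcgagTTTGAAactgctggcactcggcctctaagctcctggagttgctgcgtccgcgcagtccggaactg
Aurka: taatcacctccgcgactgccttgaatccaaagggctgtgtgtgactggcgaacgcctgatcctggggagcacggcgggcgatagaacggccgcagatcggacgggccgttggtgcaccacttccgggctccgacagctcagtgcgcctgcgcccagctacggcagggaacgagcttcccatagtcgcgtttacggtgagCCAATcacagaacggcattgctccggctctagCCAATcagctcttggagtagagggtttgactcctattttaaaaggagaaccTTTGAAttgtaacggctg
Mcm5: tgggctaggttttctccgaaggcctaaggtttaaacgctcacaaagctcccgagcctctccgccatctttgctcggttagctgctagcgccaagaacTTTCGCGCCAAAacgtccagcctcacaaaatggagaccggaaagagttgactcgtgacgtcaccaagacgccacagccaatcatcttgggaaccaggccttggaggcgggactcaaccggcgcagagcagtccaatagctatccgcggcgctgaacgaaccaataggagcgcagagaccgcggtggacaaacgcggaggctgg
TTTGAA began 30 bases after the annotated start in Plk1, 16 after it in Cenpa and 32 after it in Aurka, and 71 and 15 bases before it in Cdk1. CCAAT or its complement lay before the start in all 4, once in Plk1, at 2 places in Cenpa and Aurka and at 3 in Cdk1. In Mcm5 the 2 matches, on opposite strands, share letters and begin 153 and 149 bases before the start. Promoters were found for 18 of the 23 mitosis genes that fell, 19 in all, and 13 of these (68.4%) held TTTGAA, against 12.3% over the tested genes and 17.9% of all promoters. CCAAT was in 15 of the 19 (78.9%, against 37.8% and 37.4%). TTTNNCGC was in 10 of 28 promoters (35.7%) of 23 replication genes, against 8.07% and 5.17%, and in 1 of the 19 mitosis promoters. As 23 of 24 tested mitosis genes and all 28 tested replication genes fell, these shares describe the lists as they were drawn up. A part of these strings in the falls was not tested.

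Regulators of the G1 phase did not move as a block. Of 15 CDK inhibitors, G1 cyclins and pocket proteins, 2 rose, 7 fell and 6 did not pass (0 and 5 within set B; median -0.38). Ccnd1, cyclin D1, which growth factors induce to start the cycle, went from 13.62, 13.72, 13.51 and 13.54 to 8.82, 8.98, 8.81 and 8.99 (25.9-fold, log2 -4.70 ± 0.40, adjusted p = 3.06e-07). The 4 BMP4 values of Ccnd1 lay closer together than those of Plk1, Cenpa, Rrm2 and Mcm5. Ccnd2, cyclin D2, was at 13.58 to 13.79 and 13.99 to 14.11. Its groups did not overlap, but its log2 fold change of 0.35 ± 0.35 did not pass (adjusted p = 0.447) in the fit that pools the spread of all 12 arrays, and it passed in the fit of the 8 arrays. A further probe of Ccnd2 was lower in BMP4 by -1.30 ± 0.23. The pocket protein Rbl1 fell 6.77-fold and Cdk2 2.77-fold. Other probes of Rbl1 had -1.08 ± 0.21 and -0.98 ± 0.16 on the log2 scale. The CDK inhibitor gene Cdkn1a, which encodes p21, had a log2 fold change of 0.47 ± 0.26 (adjusted p = 0.141) by its brighter probe and 0.87 ± 0.32 (adjusted p = 0.033), past the threshold, by its other. Cdkn1b, which encodes p27, had one of -0.38 ± 0.22 (adjusted p = 0.169), which passed without BMP4 1 or without Neurosphere 4. Cdkn1c, which encodes p57, fell 3.12-fold (adjusted p = 0.0159), a call lost within set B, without BMP4 4 and without Neurosphere 4. Cdkn2b (2.07-fold) and Rb1 (1.52-fold) were the genes that rose.

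Genes of the EGF receptor and MAP kinase response were lower in 8 cases and higher in 4 of 17 tested (median -0.48). Averaged over the list, log2 signal was 8.39 to 8.62 in Neurosphere and 8.15 to 8.48 in BMP4. In LIF.NOG, which like BMP4 had EGF at 1 ng/ml, it was 8.63 to 9.14. The part of the lowered EGF was not tested. Egfr went from 11.22, 11.34, 11.40 and 11.16 to 9.46, 9.20, 9.11 and 9.02 (4.24-fold, adjusted p = 2.65e-08). Etv1, an ETS factor downstream of ERK, fell 5.05-fold, the ERK phosphatase Dusp6 3.3-fold and the feedback inhibitor Spry4 2.34-fold. Hbegf, a ligand of the EGF receptor, rose 4.53-fold and the nuclear ERK phosphatase Dusp5 4.12-fold. Egr1 was at 12.60 and 12.87 on average and did not pass (log2 fold change 0.27 ± 0.23).

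Of 14 genes of neural stem and progenitor cells, 5 fell, 1 rose and 8 did not pass (6 and 1 within set B; median -0.41). Nes, which encodes nestin, the filament protein of neural progenitors, went from 9.51, 9.09, 9.62 and 9.34 to 6.72, 6.17, 6.19 and 7.26 (6.97-fold, adjusted p = 4.61e-07). Sox11, a factor of immature neural cells, fell 8.38-fold, and Rfx4 4.95-fold. Sox2, the factor that holds the stem cell state, was at 8.23, 8.49, 8.25 and 8.40 in Neurosphere and 8.68, 8.51, 8.20 and 8.00 in BMP4, with overlapping groups (log2 fold change 0.01 ± 0.14, adjusted p = 0.973). Pax6 rose 4.13-fold. Msi1, Msi2, Prom1, Fabp7, Gli3, Nr2e1 and Tnc did not pass. The Notch list was split, with 5 of 12 genes higher and 3 lower (4 and 3 within set B; median 0.32). Hey1 and the receptor gene Notch3 (3.78-fold) rose, Hey2 rose at least 1.93-fold, and Hes5 did not pass (0.24 ± 0.64). Nrarp, a feedback target of Notch, fell 9.35-fold, and the ligand gene Dll3 at least 2.43-fold.

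Genes of oligodendrocyte progenitors fell in 6 and rose in 3 of 14 cases (6 and 2 within set B; median -0.30). Sox10, the factor of the whole oligodendrocyte lineage, was at 7.21, 7.39, 7.19 and 6.97 in Neurosphere and was detected on none of the BMP4 arrays (at least 5.01-fold lower, adjusted p = 2.67e-06). The PDGF receptor gene Pdgfra went from 8.28 to 8.75 down to 5.49 to 5.66 (7.89-fold; 0.06 ± 0.12 on the log2 scale by its other probe), Gpr17 fell 3.89-fold, Nkx2-2 at least 3.05-fold and Olig2 2.85-fold. Olig2 remained at 8.59 to 9.87 in BMP4, well above the floor. The 3 genes that rose encode extracellular proteins: the proteoglycan Bcan (5.93-fold), Tnr (at least 3.12-fold) and Matn4 (1.66-fold). Of 11 genes of myelinating oligodendrocytes 3 fell and none rose: Cldn11 (4.75-fold), Tspan2 (1.94-fold) and Car2 (1.92-fold, adjusted p = 0.0241). Over all genes tested 27.7% were lower, so the count of falls does not set this list apart. The calls of Cldn11 and Car2 were lost within set B, where 2 genes of the list were called lower, and that of Car2 also without Neurosphere 3, BMP4 2 or BMP4 4. Mbp, at 5.44 to 6.18 and 4.67 to 5.44, did not pass (adjusted p = 0.0834).

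Neuronal genes gave no common direction, with 7 of 22 higher, 5 lower and 10 not passing (4 and 3 within set B; median 0.05). Dcx, the marker of migrating neuroblasts, was near the floor in both groups, at 4.52 to 5.39 and 4.41 to 6.08 (log2 fold change 0.16 ± 0.38, adjusted p = 0.758), and Tubb3 did not pass either. Nsg2, a protein of endosomes in neurons, rose 20.8-fold, while its relative Nsg1 fell 3.45-fold. Robo2 rose 3.08-fold, with 1 of its 4 kept probes at 0.06 ± 0.15 on the log2 scale. The interneuron genes Dlx2, Dlx1 and Gad1 rose, and Dlx5 fell.

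Markers of other cell types were looked up on the 8 arrays. All 14 microglia and macrophage markers with a probe, Aif1, Cx3cr1, Itgam, Ptprc, Tyrobp and Tmem119 among them, were detected on none of the 8 arrays. Lyz2, a lysozyme gene of macrophages that was picked after its values were seen, nevertheless rose at least 12.6-fold. Of 12 endothelial markers with a probe, 4 were detected on all BMP4 and 2 on all Neurosphere arrays; the transporter gene Slco1a4, which astrocytes can also express, rose at least 3.77-fold, and Cdh5 and Tek were detected on no array. Averaged over the 7 endothelial genes tested, log2 signal was 5.08 to 5.27 in Neurosphere and 5.46 to 5.63 in BMP4. Of 10 mesenchymal, smooth muscle and pericyte genes tested, 4 rose and 2 fell (2 and 1 within set B; median 0.20), and their mean log2 signal was 6.07 to 6.36 in Neurosphere and 6.44 to 7.14 in BMP4, highest on BMP4 4. Acta2 fell 7.22-fold (-0.12 ± 0.55 by another of its 3 probes), while Thy1 rose 4.51-fold with overlapping groups, from 6.65 to 8.49 up to 7.63 to 11.85. Rgs5 rose at least 2.64-fold and Fn1 3.54-fold, with overlapping groups for Fn1. The collagen genes Col1a2 and Col3a1 were detected on no array and Col1a1 on 1 BMP4 array. Of 5 ependymal genes tested, Fam183b (at least 1.82-fold) and Rsph1 (2.2-fold) rose and Mlf1 fell, and the call of Fam183b was lost without BMP4 3 or BMP4 4. The part of these cells in the changes above was not tested.

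Lysosomal genes were mostly higher, with 11 of 17 up and 1 down (12 and 0 within set B; median 0.97). The cathepsins Ctsh (at least 17.0-fold), Ctsd (8.47-fold) and Ctsb (4.87-fold) led. Ctsd went from 9.23, 9.19, 9.41 and 9.66 to 12.34, 12.20, 12.16 and 13.11. Npc1, the lysosomal cholesterol transporter, rose 4.08-fold by its brightest probe, but its 5 kept probes did not share a direction. Matrix and adhesion genes were higher in 11 and lower in 4 of 23 cases (11 and 2 within set B; median 0.76). The metalloprotease inhibitors Timp3 and Timp2 rose 12.2-fold and 6.52-fold, the protease gene Adamts1 at least 9.48-fold and the tetraspanin Cd9 7.52-fold, while the basement membrane collagen Col4a1 fell 2.22-fold. On the log2 scale, other probes had as little as 0.92 ± 0.12 for Timp3 and 1.58 ± 0.19 for Adamts1.

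Of 19 genes of glycolysis and the hypoxia response, 9 rose, 2 fell and 8 did not pass (7 and 2 within set B; median 0.49). The glucose transporter gene Slc2a1 went from 8.84, 8.62, 8.78 and 8.72 to 12.19, 11.85, 11.91 and 11.56 (8.83-fold). The phosphofructokinase genes Pfkm and Pfkp rose 8.06-fold and 5.05-fold. Hexokinase 2, encoded by Hk2, fell 3.49-fold and the peptide hormone gene Adm 5.39-fold, and Gapdh, Aldoa, Tpi1, Pkm and Ldha did not pass. Interferon and antigen presentation genes were higher in 7 and lower in 2 of 14 cases (4 and 2 within set B; median 0.48), with Ifi27 up 17.9-fold, Irf1 up 6.66-fold, Ifit3 up at least 2.77-fold and Gbp3 down 6.06-fold. Cholesterol synthesis genes mostly did not pass: of 18, 2 rose, 5 fell and 11 did not pass (0 and 1 within set B; median -0.22). Fdps fell 2.34-fold and Ebp 1.7-fold, Lss fell 2.28-fold with overlapping groups (-0.01 ± 0.16 by its other probe), and Sc5d rose 1.8-fold, and of these 4 only Ebp kept its call within set B.

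**Figure D5:**
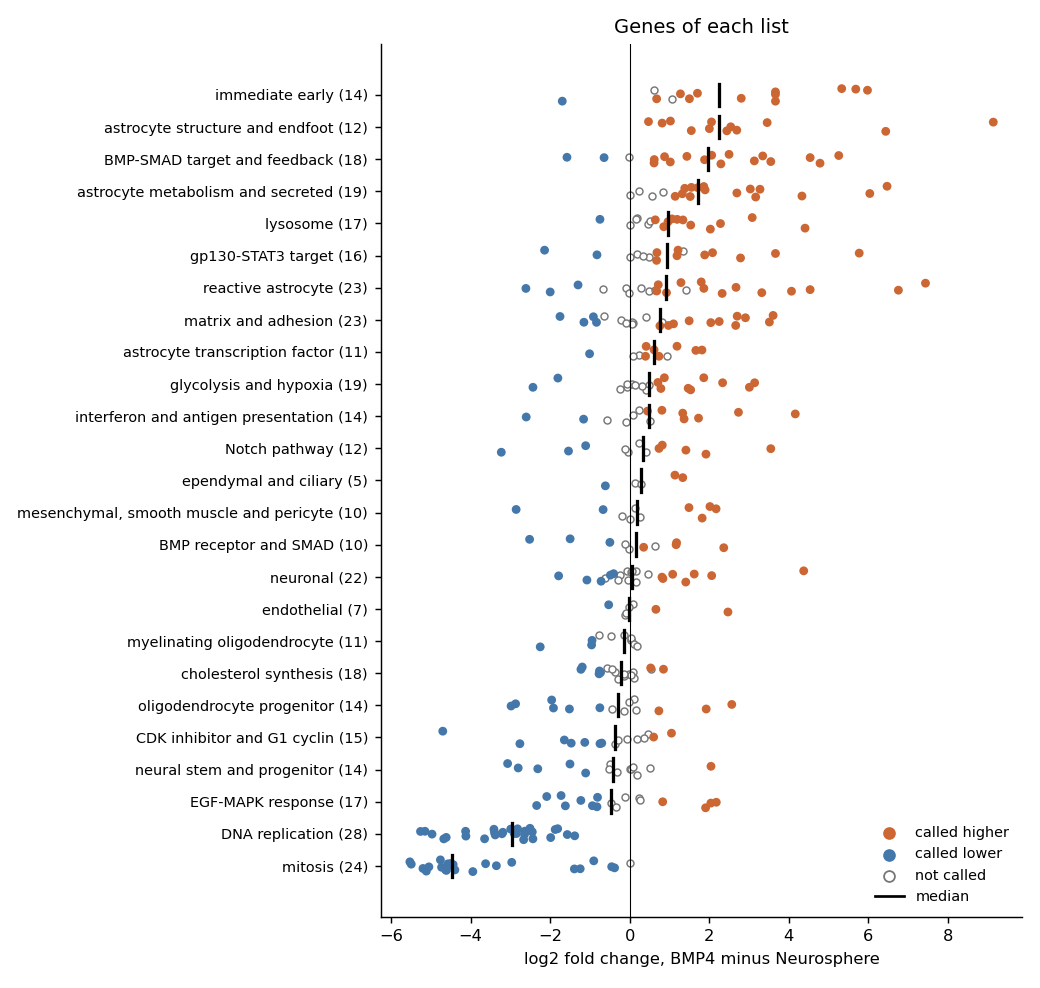
Log2 fold change (BMP4 minus Neurosphere) of every tested gene in 25 gene lists, ordered by median (black bars; number of genes tested in parentheses; orange, called higher; blue, called lower; open, not called). The mitosis and DNA replication lists lie wholly or nearly wholly to the left of 0, and the list of astrocyte structure and endfoot lies wholly to its right.

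Levels in LIF.NOG are set beside these, with no test, since they would share the Neurosphere arrays as controls. Gfap was at 11.79, 8.77, 11.01 and 12.33 on LIF.NOG 1 to 4, between both groups, and Apoe at 13.49, 12.20, 12.74 and 13.95. Nog and S100b were detected on none of the LIF.NOG arrays. Id1 was at 7.56, 6.68, 7.43 and 6.91 in LIF.NOG, below every BMP4 array, and Serpinf1 at 5.62 to 5.97, within its Neurosphere range. Egfr was at 11.06 to 11.53 in LIF.NOG, which overlaps the Neurosphere range. Fos was at 13.31 to 14.46 in LIF.NOG and so was also high there. Plk1 was at 9.11 to 11.34 and Ccnd1 at 11.61 to 14.33, above every BMP4 array, and Sox10 was at 7.10 to 9.13.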

How the data were processed

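RNA of 12 samples, 4 per group, was hybridised to Illumina mouse bead arrays. Per the file headers, the deposited raw table holds a non-normalized intensity and a detection p-value for each probe and array. The authors' processed intensity values, in a further table, look quantile normalized. BeadStudio 3 and lumi 2.15.1 appear without a role in the submitters' processing notes. No sample's column was left unused (0).

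The raw column of Neurosphere 1 stands in another row order (median rank correlation 0.0104 with the others). It was moved through 5 arrays that appear in both orders, which matched 46612 rows of the authors' table and left out 18. Its rank correlation with its own group was then 0.916 to 0.928. On leaving out any 1 of these arrays, 99.86% to 99.99% of the matches were found again. Of 46601 probes 29957 had 1 symbol in the platform annotation, 10 several and 16634 none.

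Background correction and quantile normalization used neqc (offset 16, log2) of limma 3.58.1 in R 4.3.3. Probes with a detection p-value under 0.05 on at least 4 of 12 arrays were kept (20303, of which 15355 had 1 symbol), and the brightest of several probes (3343 genes) stood for its gene. All 12 arrays entered the fit with lmFit and eBayes (degrees of freedom: 9 residual, 4.60 prior). Tests were two-sided with Benjamini-Hochberg adjustment, called under 0.05. Where the dimmer group was detected on at most 2 arrays or averaged under the floor, signals under the floor were set to it and the fold is a bound. The number of arrays limits the precision. On simulated data 77 of 100 changes of 1 on the log2 scale and 97 of 100 of 2 were called, and 13 of 10585 unchanged genes. Most of the 10785 genes were thus unchanged there, whereas 54.3% were called in the data, so these shares do not carry over.

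The comparison, its members, the 26 gene lists (534 genes, 385 tested) and the rules below were chosen with earlier results of these data known. Named genes were the 12 largest called changes per direction without overlap and with detection on each array of the higher group, the 4 largest called changes of each list, a set of genes named outright, and the 6 genes outside the lists with the smallest adjusted p and a change of at least 4-fold per direction. Other genes with values were named as list members or after their values were seen. Levels of different genes are not compared. Promoters came from RefSeq tables on GRCm38.p6. Scripts ran in Python 3.11.15 with pandas 2.3.3, scipy 1.17.1, numpy 2.4.6 and matplotlib 3.10.9. The 19 alternatives are named in the closing section.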

Additional observations from a re-analysis of the deposited data

Results flagged for a closer look

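Among 268 sets of 4 values (134 named genes in both groups), 19 held 1 array far from the other 3, where chance alone gives about 1 in 20 such sets. Of these, 6 were BMP4 4 and 5 were Neurosphere 4.

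On BMP4 4, Zbtb20 was at 11.89 while the other BMP4 arrays lay between 10.94 and 11.06, Sphk1 at 10.21 (others 11.39 to 11.58), Junb at 9.75 (8.89 to 9.02) and Sox11 at 9.01 (9.41 to 9.46). Also on BMP4 4, Cldn11 was at 6.59 (others 5.02 to 5.12) and S100b at 7.56 (6.11 to 6.31). Pdgfra was high on BMP4 1 at 5.66 (others 5.49 to 5.51), and Gpr17 on BMP4 3 at 6.01 (5.79 to 5.82).

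On Neurosphere 4, Zbtb20 was at 9.03 (others 9.69 to 9.80), Nfib at 12.13 (12.45 to 12.48), Fdps at 13.18 (12.61 to 12.64), Adm at 7.92 (7.36 to 7.42) and Spsb4 at 11.26 (11.39 to 11.41). On Neurosphere 3, Papss2 was at 4.297 (others 4.34 to 4.35, below the floor), Id1 at 7.67 (8.13 to 8.19) and Dcx at 4.52 (5.29 to 5.39). On Neurosphere 1, Bcan was at 8.95 (8.73 to 8.76) and Adamts1 at 5.00 (4.54 to 4.56), and on Neurosphere 2, Stum was at 5.28 (4.75 to 4.79).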

How the results depend on the processing

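The 2867 higher and 2987 lower genes became 1878 and 1927 within row-order set B and 1403 and 1237 when a change of more than 1.5-fold was required (limma's treat), both smaller by construction. With the set as a block they were 2265 and 2421, with 79.0% of calls kept. Leaving out each array in turn gave 2636 to 2843 higher and 2751 to 2930 lower genes. Skipping background correction, median scaling, the authors' processed values, no filter or a stricter filter on dim probes, the mean of a gene's probes and the fit of the 8 arrays alone each stayed within 1.5 times, with at least 94.9% of calls kept; 41 signs turned with the mean of probes. Whether the replicate numbers pair the samples was not settled. Correlations of deviations were 0.0097, 0.194, 0.106 and 0.067 for same-number arrays and -0.228 to 0.136 for the others. With the replicate block 2922 and 2996 genes were called. All 126 called named genes that could be refitted kept their sign in each alternative; 16 lost the call in at least 1, among them Vim, Thy1, Vwf, Egfl7, Fdps and Lss. Ccnd2, Lcn2, Mbp and Cdkn1b gained one, and Slc1a3 did with the mean of its probes (log2 -0.61), with its sign turned. Of 59 named genes with more than 1 kept probe, 14 had a probe of another call or sign. The share of detected probes passed the exact permutation test in no setting: leaving out 1 array each, p was 0.171 to 0.629 and the difference 0.198 to 1.13 percentage points. At a detection p-value under 0.01 the difference was 0.216 (exact permutation test, p = 0.8).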

Other observations

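These gene groups were gathered by symbol after their values had been seen and are given as counts and values. Core histone genes split by type. All 9 measured H2ac genes other than H2ac18 and H2ac19 fell, led by H2ac15 (log2 fold change -4.75 ± 0.43), H2ac12 (-4.68 ± 0.43) and H2ac8 (-4.53 ± 0.36), while H2ac18 and H2ac19 rose by 3.46 ± 0.33 and 3.48 ± 0.30. All 11 measured H2bc genes rose, with H2bc4 at 3.07 ± 0.19 and H2bc11 at 2.85 ± 0.19. Of 35 core histone genes in all, 21 rose, 11 fell and 3 did not pass. These genes have near-identical copies, so a probe may report several of them. Centromere proteins fell in 14 of 16 cases with none higher, and condensin and cohesin genes in 12 of 15.

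The 3 metallothionein genes Mt1, Mt2 and Mt3 rose by 1.67 ± 0.16, 4.47 ± 0.33 and 3.51 ± 0.23 on the log2 scale. Of 6 small heat shock genes 4 rose, among them Hspb8 (5.94 ± 0.23) and Cryab (3.59 ± 0.32), and Hspb6 did not pass (-0.34 ± 0.41). Glutathione transferases rose in 7 and fell in 3 of 15 cases, led by Gstm6 (3.67 ± 0.16) and Gstm1 (3.25 ± 0.20). Genes of neuroendocrine secretory granules rose in 5 of 6 cases, with Chgb at least 33.5-fold higher and Scg5 higher by 4.24 ± 0.29. Chgb and Scg2 were detected on none of the Neurosphere arrays and Chga on 1. All 3 were detected on the 4 BMP4 arrays, so they could enter the test through the group in which they were high. Of 12 genes of the circadian clock 10 rose and none fell: its output factor Dbp rose by 4.44 ± 0.19 and the repressor gene Nr1d1 by 2.88 ± 0.16, while Per2 (0.19 ± 0.27) and Ciart (0.32 ± 0.18) did not pass. The hour of harvest is not given in the labels.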
